A study of Mus musculus with 12 samples.

Results

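The Bcl2 family and the initiator caspases decide whether a stressed cell starts apoptosis, the programme of orderly cell death. Expression was read for 9 genes of this machinery in mouse kidney: the survival genes Bcl2, Bcl2l1 and Mcl1, the pore former Bak1, the BH3-only genes Bid, Bcl2l11 and Bad, and the initiator caspases Casp8 and Casp9. They were chosen by gene symbol, as machinery outside a separate list of p53-induced death genes. That split follows the lists alone, and whether p53 acts on any of the 9 was not tested. All 9 were found among the 19261 genes of the deposited table. All 9 also passed the filter on low counts, which left 14428 genes to be tested.

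In this pathway the survival proteins Bcl-2, Bcl-xL (from Bcl2l1) and Mcl-1 hold Bak and its partner Bax in check on the mitochondrial surface. BH3-only proteins bind the survival proteins, and some of them also activate Bak and Bax directly, after which cytochrome c leaks out and caspase-9 is activated on the apoptosome. Caspase-8 starts the other branch, at death receptors, and joins the mitochondrial branch by cutting Bid. In kidney the tubule cells are known for dying in this way after toxic drugs and loss of blood flow.

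The study crossed busulfan, an alkylating drug that crosslinks DNA, with alginate oligosaccharides (AOS), short sugar chains cut from a seaweed polymer. A single busulfan dose of 40 mg/kg, followed by 5 weeks of AOS at 10 mg/kg, defined the busulfan plus AOS group. Busulfan mice had that dose alone, AOS mice had 5 weeks of AOS at 10 mg/kg alone, and controls had neither. Each group has 3 libraries of total RNA, and no allele, transgene, sex or age is named for any group. In the labels the strain reads IRC and the tissue reads cells, but kidney is named in the series title and the extraction protocol. Nothing states that a group's libraries stem from different animals, and p-values therefore reflect only the spread between these libraries, which may be technical.

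Library totals ranged from 13875942 to 15329347 estimated reads. The 12 proximal tubule markers summed to 40394 CPM (counts scaled by library size) in busulfan replicate 3 and to 50048.5 CPM or more in the other 11 libraries, the pattern of the labelled kidney. Markers of other tissues stood out in a few libraries. Busulfan replicate 3 held 12123 CPM of the 13 adrenal markers, and no other library more than 11.9 CPM. It was also highest for the 8 endothelium markers, at 518 CPM against at most 388 CPM elsewhere, and for the 9 macrophage markers, at 194 CPM against at most 120.1 CPM. The 13 hepatocyte markers came to 21244 CPM in busulfan plus AOS replicate 3 and to at most 3075 CPM elsewhere. The 10 adipocyte markers reached 497 and 946 CPM in busulfan replicates 2 and 3, and at most 96.7 CPM elsewhere. Busulfan plus AOS replicate 1 stood apart by Egr1, an immediate early gene that is switched on within minutes of a stimulus, at 326 CPM against 1.38 to 30.2 CPM in the other 11 libraries. These libraries recur below, because several of the 9 genes had their highest or lowest value in one of them.

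Promoter windows, 250 bases before to 50 bases after an annotated start, were available from RefSeq (GRCm38.p6) for 9 of the 9 genes, 13 windows in all. Both strands were searched for the p53 half-site consensus, for the EGR1 letters GCGTGGGCG, the cAMP response element TGACGTCA, the AP-1 letters TGANTCA, the FOXO letters GTAAACA, the CCAAT box CCAAT, the GC box GGGCGG and the TATA box TATAAA. EGR1 and GC box letters can overlap. Of 32851 windows of this length in the RefSeq set, 8.36% hold the p53 half-site, 0.612% the EGR1 letters, 1.79% the cAMP response element, 7.81% the AP-1 letters, 3.65% the FOXO letters, 37.4% a CCAAT box, 35.7% a GC box and 13.6% a TATA box. None of the 13 windows of the 9 genes holds the p53, EGR1, cAMP, AP-1 or TATA letters, which says only that those letters are not in these windows. The FOXO letters occur in 1 of the 13, a window of Bcl2l11.

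The 4 windows printed here run 5′ to 3′ on the plus strand, with every match to the searched letters in capitals. Those of Bcl2l11 are shown because this gene had the largest average busulfan estimate of the 9; the first, chr2:128125788-128126087, carries the FOXO letters, and the second is chr2:128127325-128127624. That of Mcl1, chr3:95658471-95658770, belongs to the most abundant of the 9 genes. That of Casp8, chr1:58802252-58802551, has the lowest share of G and C among the 13, at 42.0%, with 5 CpG pairs; the next lowest share is 49.3%, in a window of Bcl2l1 with 1 CpG pair.
Bcl2l11 first window: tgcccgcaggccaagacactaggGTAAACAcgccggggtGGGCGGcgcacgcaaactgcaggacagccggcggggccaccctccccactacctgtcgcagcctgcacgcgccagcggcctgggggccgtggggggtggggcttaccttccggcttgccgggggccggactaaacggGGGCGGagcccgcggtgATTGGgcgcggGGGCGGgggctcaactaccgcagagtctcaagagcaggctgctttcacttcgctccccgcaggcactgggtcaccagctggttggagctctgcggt
Bcl2l11 second window: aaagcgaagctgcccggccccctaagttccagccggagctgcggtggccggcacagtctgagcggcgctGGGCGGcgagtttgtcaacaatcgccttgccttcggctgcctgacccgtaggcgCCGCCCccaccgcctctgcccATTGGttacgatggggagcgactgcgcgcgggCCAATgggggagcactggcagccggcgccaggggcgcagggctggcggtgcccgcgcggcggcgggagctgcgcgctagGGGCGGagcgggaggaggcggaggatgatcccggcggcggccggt
Mcl1 window: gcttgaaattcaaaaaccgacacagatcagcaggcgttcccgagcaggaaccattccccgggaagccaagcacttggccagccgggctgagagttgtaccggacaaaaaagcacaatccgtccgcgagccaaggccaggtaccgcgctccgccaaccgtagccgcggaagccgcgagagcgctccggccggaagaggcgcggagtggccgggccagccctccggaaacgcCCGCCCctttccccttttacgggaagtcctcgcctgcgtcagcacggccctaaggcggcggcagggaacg
Casp8 window: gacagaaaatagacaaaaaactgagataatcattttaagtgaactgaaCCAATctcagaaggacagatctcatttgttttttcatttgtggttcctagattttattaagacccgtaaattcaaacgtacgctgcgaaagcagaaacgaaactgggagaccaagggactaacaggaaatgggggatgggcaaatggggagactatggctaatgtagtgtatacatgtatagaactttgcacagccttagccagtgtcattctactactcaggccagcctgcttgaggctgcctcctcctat

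Bcl2, with 76.0% G and C and 44 CpG pairs, had the window richest in both among the 13, and 7 GC boxes. The windows of Bcl2l1 ranged from 1 to 22 CpG pairs, so the promoters of the survival genes alone span the whole range of the 13, against a median of 7 CpG pairs over all windows. The 9 genes lie on 7 chromosomes and all are annotated as protein coding. RefSeq places Bcl2 and Casp8 on chromosome 1, Bcl2l1 and Bcl2l11 on chromosome 2, Mcl1 on chromosome 3, Casp9 on chromosome 4, Bid on chromosome 6, Bak1 on chromosome 17 and Bad on chromosome 19.

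Levels per transcript length were compared on the deposited FPKM values. Averaged over the 12 libraries, Mcl1 stood highest at 44.9 ± 9.05 FPKM (SD) and Bcl2l1 next at 39.1 ± 3.74 FPKM, and the ranges of these survival genes overlapped. Bad followed at 20.2 ± 1.65 FPKM, Casp8 at 14.9 ± 1.61 FPKM, Bid at 12.05 ± 9.97 FPKM, Bak1 at 9.27 ± 1.94 FPKM and Casp9 at 6.48 ± 1.45 FPKM. Bcl2l11 at 2.23 ± 0.865 FPKM and Bcl2 at 2.22 ± 0.273 FPKM were lowest and could not be told apart. The ranges of Bcl2l1, Bad and Casp8 did not overlap, while Bak1 overlapped with Casp8 and with Casp9, and Casp9 with Bcl2l11. Bcl2, the founding member of the family, was thus among the 2 least abundant of the 9. Bid overlapped with every gene but Mcl1 and Bcl2l1, because its own values ran from 0.56 to 22.4 FPKM.

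**Figure D1:**
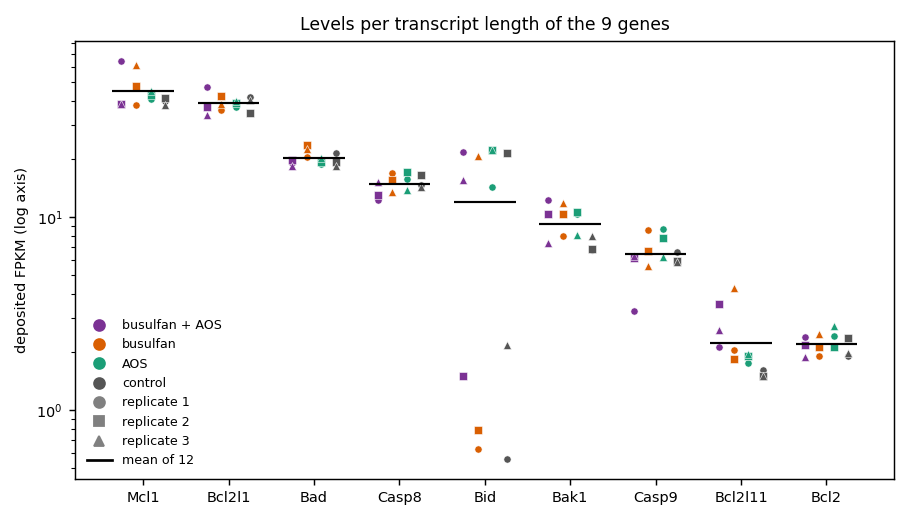
Deposited FPKM of the 9 genes on a log axis, ordered by their mean over 12 libraries (black line); colours are the 4 groups and marker shapes the replicates. Mcl1 and Bcl2l1 lead at means of 44.9 and 39.1 FPKM, Bcl2l11 and Bcl2 close the order at 2.23 and 2.22 FPKM, and Bid alone splits into a low and a high set of libraries.

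The genes also differed in how much they varied. The coefficient of variation over the 12 libraries was 6.70% for Bad, 9.26% for Bcl2l1, 9.93% for Bcl2 and 12.5% for Casp8, below the median of 14.4% over all tested genes. It was 17.2% for Mcl1, 18.1% for Bak1, 23.3% for Casp9, 35.1% for Bcl2l11 and 81.7% for Bid. By this measure Bad stood at percentile 10.3 of the tested genes and Bid at percentile 94.6.

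**Figure D2:**
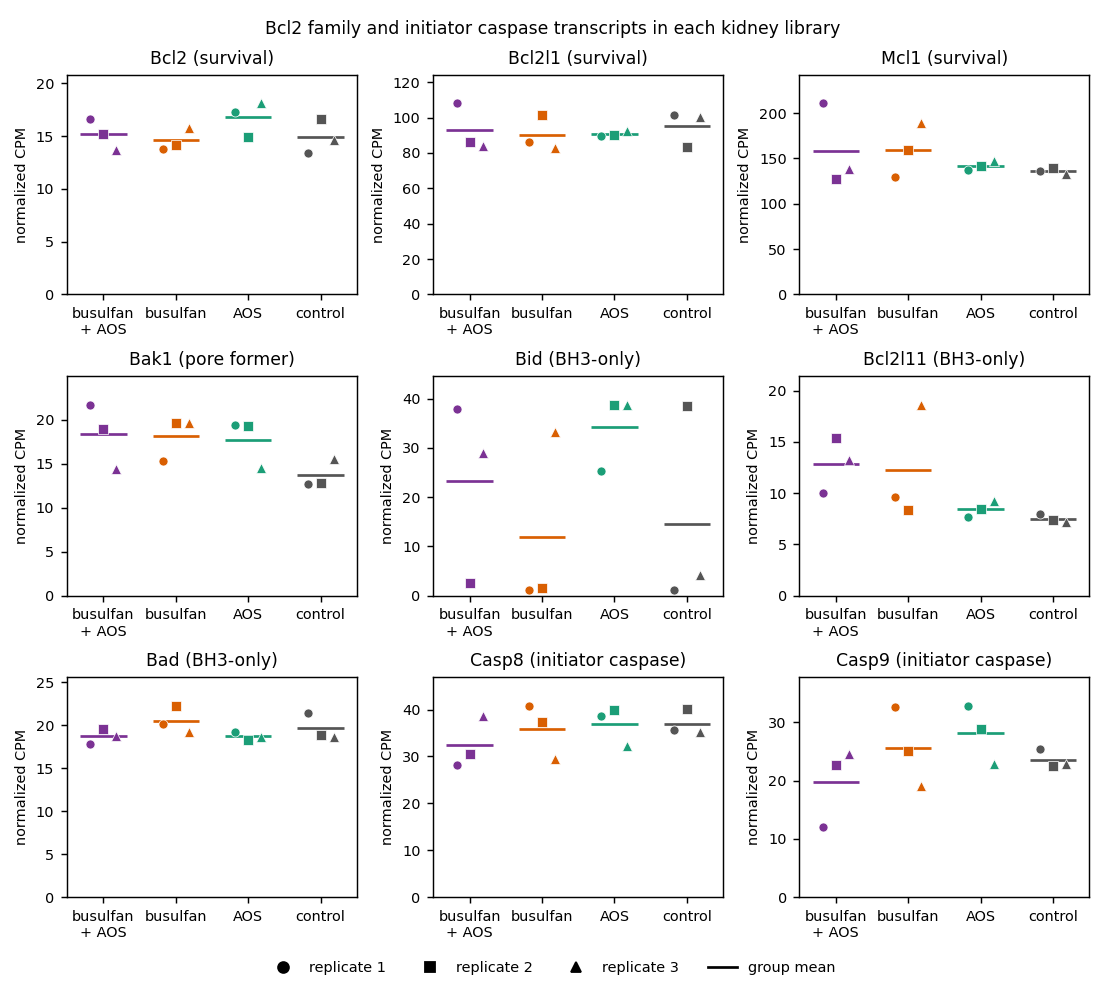
Normalized CPM of each gene in each library (points, shaped by replicate) with the group mean (line); axes start at 0. Bcl2l11 reaches 18.6 CPM in busulfan replicate 3 and stays at or below 9.26 CPM in the 6 libraries without busulfan, while Bid lies either at 4.16 CPM and below or at 25.3 CPM and above.

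Whether busulfan changed these genes was asked without AOS, with AOS, and averaged over both. With edgeR, 0 of the 9 genes passed an adjusted p of 0.05 in any of the 3 comparisons, while over all tested genes 0.0416% passed for busulfan against control, 0.0693% for busulfan plus AOS against AOS and 0.194% for busulfan averaged over AOS. At an unadjusted p under 0.05, Bak1 and Bcl2l11 were reached for busulfan against control (2 of 9, against 10.1% of all genes), none for busulfan plus AOS against AOS (9.16% of all genes) and Bcl2l11 for the average (1 of 9, against 12.1%). Groups did not overlap for 1 gene, Bcl2l11, in busulfan against control, as for 11.3% of all genes, and for the same gene in busulfan plus AOS against AOS, as for 17.2%. In the average 0 of 9 were free of overlap, against 0.984% of all genes. The median log2 fold change of the 9 was -0.02 for the average, beside -0.00 over all tested genes. DESeq2 and limma with voom also called 0 of the 9 in every comparison.

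**Figure D3:**
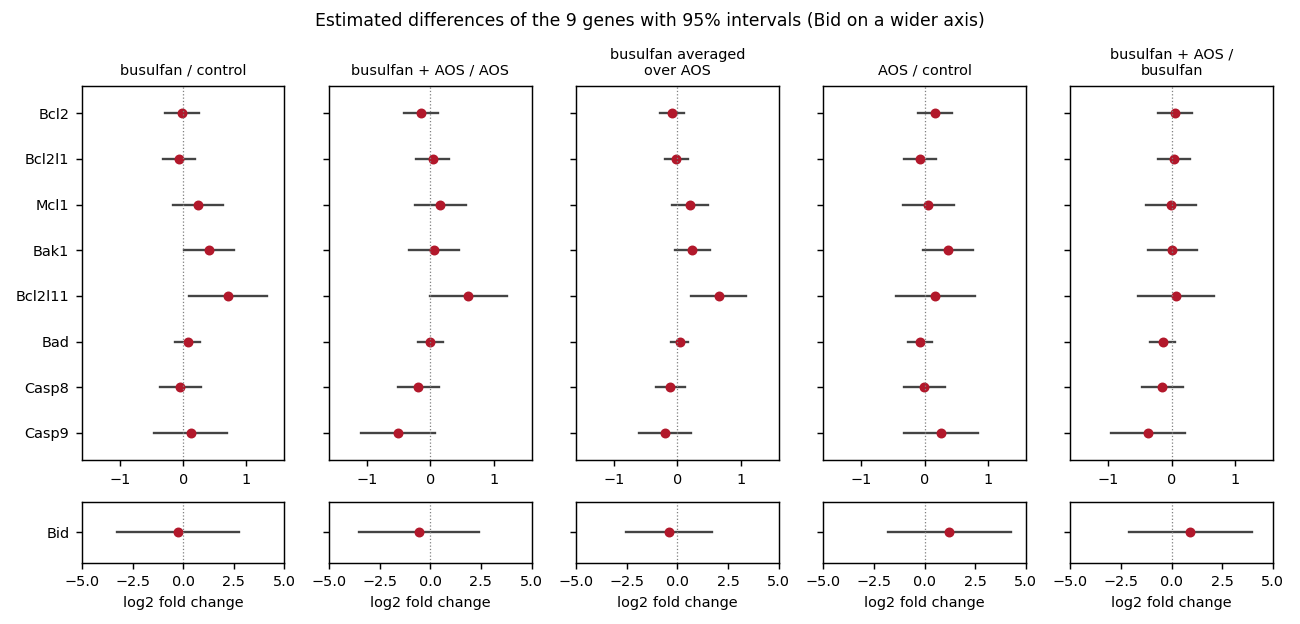
Log2 fold changes (points) with 95% intervals (lines) of the 9 genes from the fit over all libraries, for 5 comparisons; Bid has its own, wider axis. The intervals of Bcl2l11 and Bak1 lie above 0 for busulfan against control and that of Bcl2l11 for busulfan averaged over AOS, no estimate passed an adjusted p of 0.05, and those of Bid span several units to both sides.

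The intervals of Bcl2 and Bcl2l1 for busulfan were among the narrower of the 9. Bcl2, which guards the mitochondrial membrane, measured 16.6, 15.2 and 13.7 CPM in busulfan plus AOS, 13.8, 14.2 and 15.8 CPM in busulfan, 17.2, 14.9 and 18.1 CPM in AOS and 13.4, 16.6 and 14.6 CPM in control. All 4 groups overlapped, and the average busulfan difference was -0.08 ± 0.09 on the log2 scale (SE, 95% interval -0.28 to 0.11, edgeR adjusted p = 0.697). Bcl2l1, whose long form Bcl-xL does the same work, measured 108, 86.2 and 84.1 CPM in busulfan plus AOS, 86.4, 101.6 and 83.0 CPM in busulfan, 89.3, 90.2 and 92.4 CPM in AOS and 101.5, 83.3 and 100.2 CPM in control. Its average busulfan difference was -0.02 ± 0.08 (95% interval -0.20 to 0.16). Gene totals do not separate the long survival form of Bcl2l1 from its short pro-death form, and the gene model overlaps on the opposite strand with Cox4i2 over 6308 bases.

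Mcl1 makes a short-lived survival protein that cells replace quickly. It measured 211, 127 and 138 CPM in busulfan plus AOS, 129, 159 and 189 CPM in busulfan, 138, 141 and 147 CPM in AOS and 136, 139 and 133 CPM in control. The spread lay in the busulfan groups: the SD was 45.6 CPM in busulfan plus AOS and 29.8 CPM in busulfan, against 4.72 CPM in AOS and 3.09 CPM in control. The 2 highest libraries were busulfan plus AOS replicate 1, where Egr1 was at 326 CPM, and busulfan replicate 3, which carried the adrenal markers, and the part of either feature in Mcl1 was not tested. The average busulfan difference of 0.20 ± 0.13 (95% interval -0.09 to 0.48, edgeR adjusted p = 0.547) was 0.07 without busulfan plus AOS replicate 1.

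Bak1, which forms the mitochondrial pore, measured 21.7, 19.0 and 14.5 CPM in busulfan plus AOS, 15.3, 19.6 and 19.6 CPM in busulfan, 19.4, 19.2 and 14.5 CPM in AOS and 12.7, 12.8 and 15.6 CPM in control. Group means were 18.4 ± 3.67, 18.2 ± 2.53 and 17.7 ± 2.76 CPM in the 3 treated groups and 13.7 ± 1.63 CPM in control (SD, n = 3 each), and control replicate 3 overlapped with each treated group. Busulfan differed from control by 0.41 ± 0.18 on the log2 scale (95% interval 0.02 to 0.81, unadjusted p = 0.0418, edgeR adjusted p = 0.485), and AOS from control by 0.37 ± 0.18 (95% interval -0.03 to 0.77, edgeR adjusted p = 1). Those estimates share the control libraries. Where AOS was given to both groups, busulfan made a difference of 0.05 ± 0.18 (95% interval -0.34 to 0.45), and the interaction of busulfan and AOS was -0.36 ± 0.25 (edgeR adjusted p = 0.811). Bak1 lies on the minus strand inside Ggnbp1, on the plus strand, over 8816 bases, and since no source gives the strandedness of the counting, reads of these genes may not be fully separated. Ggnbp1 measured 6.55 to 10.4 CPM over the 12 libraries.

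Bcl2l11, which encodes the BH3-only protein Bim that activates Bak and Bax, had the largest average busulfan estimate of the 9. It measured 9.98, 15.4 and 13.2 CPM in busulfan plus AOS, 9.61, 8.39 and 18.6 CPM in busulfan, 7.68, 8.49 and 9.26 CPM in AOS and 7.99, 7.37 and 7.20 CPM in control. Every busulfan library lay above every control library and every busulfan plus AOS library above every AOS library, while over both pairs AOS replicates 2 and 3 exceeded busulfan replicate 2. The difference was 0.71 ± 0.28 on the log2 scale for busulfan against control (95% interval 0.09 to 1.32, unadjusted p = 0.0283, edgeR adjusted p = 0.453), 0.60 ± 0.28 for busulfan plus AOS against AOS (95% interval -0.01 to 1.22, edgeR adjusted p = 0.554) and 0.65 ± 0.20 for the average (95% interval 0.22 to 1.09, unadjusted p = 0.00703, edgeR adjusted p = 0.304). The difference did not pass the threshold across all genes, and by p for the average the gene ranked at 333 of 14428.

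The busulfan value of Bcl2l11 rested in part on replicate 3, the library with the adrenal markers. Without it busulfan differed from control by 0.26, and the average was 0.43. Over the 22 alternatives the average ranged from 0.42 to 0.76 with unadjusted p between 0.00210 and 0.0199, and the lowest adjusted p was 0.0929, with DESeq2. The 8 fibroblast and pericyte markers, all measured and none at 0 in any library, also differed between the libraries: they summed to 208 to 218 CPM in busulfan plus AOS, 117 to 548 CPM in busulfan, 130 to 148 CPM in AOS and 104 to 158 CPM in control, with 548 CPM in busulfan replicate 3. The part of these markers, and of the low proximal tubule and high endothelium and macrophage sums of busulfan replicate 3, in the Bcl2l11 values was not tested. In tissue RNA, fewer cells of a type and less RNA per cell cannot be told apart. Bcl2l11 counts were whole in 6 of 12 libraries, and how its reads were assigned was not tested. Its gene model overlaps with that of Acoxl over 215 bases; Acoxl had at most 9.80 reads in a library.

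Bad, a BH3-only protein kept inactive by survival kinases, was the steadiest of the 9. It measured 17.8, 19.5 and 18.8 CPM in busulfan plus AOS, 20.1, 22.2 and 19.2 CPM in busulfan, 19.2, 18.3 and 18.7 CPM in AOS and 21.4, 18.9 and 18.6 CPM in control. Its average busulfan difference was 0.03 ± 0.06 on the log2 scale, with a 95% interval of -0.10 to 0.17, the narrowest of the 9. Whole counts occurred in 1 of 12 libraries, and the gene overlaps with Gpr137 on the opposite strand over 590 bases.

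Bid, the BH3-only protein that caspase-8 cuts, did not follow the groups. It measured 37.9, 2.65 and 29.1 CPM in busulfan plus AOS, 1.24, 1.496 and 33.3 CPM in busulfan, 25.3, 38.7 and 38.8 CPM in AOS and 1.12, 38.5 and 4.16 CPM in control. Thus 7 libraries lay at 25.3 to 38.8 CPM and 5 at 1.12 to 4.16 CPM, with nothing in between, and each group but AOS held libraries of both kinds. The empty stretch spanned 6.06-fold; among 11035 genes with a mean of at least 5 CPM, 1.77% had a gap as wide between neighbouring values. The fitted differences were accordingly imprecise, at -0.26 ± 1.37 for busulfan against control (95% interval -3.28 to 2.77) and 1.23 ± 1.37 for AOS against control (95% interval -1.79 to 4.25). Single libraries set their size: the first was -3.42 without busulfan replicate 3 and 2.23 without control replicate 2.

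The gene with the pattern most like Bid was its neighbour Bcl2l13, a Bcl2 family member of the outer mitochondrial membrane. Bcl2l13 measured 27.0, 1.88 and 21.2 CPM in busulfan plus AOS, 0.252, 0 and 28.1 CPM in busulfan, 16.7, 33.3 and 23.9 CPM in AOS and 0, 27.6 and 2.55 CPM in control. Busulfan replicate 2 and control replicate 1 had 0 Bcl2l13 reads, which allows up to 0.208 and 0.213 CPM (scaled by the library total; counting error only). The same 7 libraries were high for both genes and the same 5 low. The genes lie tail to tail on opposite strands of chromosome 6, with 276 bases between their RefSeq ends; in the GENCODE annotation of the same assembly they overlap over 913 bases, through 1 of 5 Bid transcripts. The deposited counts of Bid were whole in 0 of 12 libraries, against 12 of 12 for Casp8 and Casp9. Bid also overlaps on the opposite strand with the pseudogene Gm17812 over 988 bases, and Gm17812 is not among the genes counted. How the reads of these stretches were assigned was not tested, and the levels of Bid and Bcl2l13 are uncertain for that reason.

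**Figure D4:**
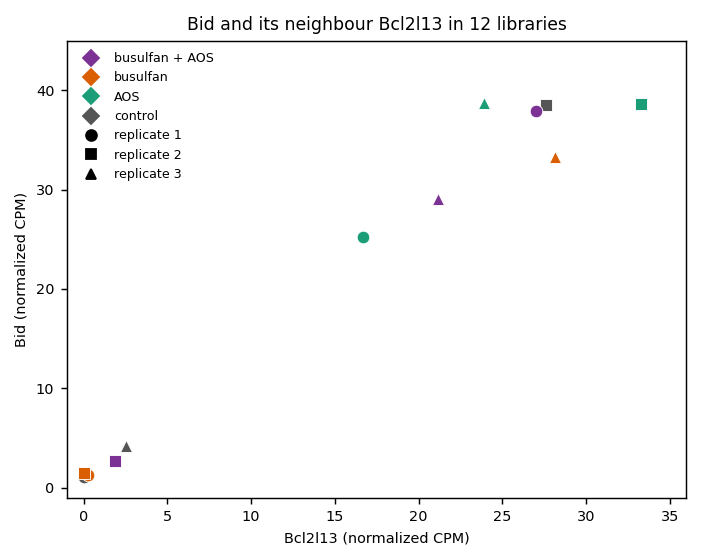
Bid against Bcl2l13 in normalized CPM, with a point for each of 12 libraries, coloured by group and shaped by replicate. There are 7 libraries at 25.3 CPM or more of Bid and 5 at 4.16 CPM or less, 3 of those on top of each other near 0, and both genes are high or low in the same libraries.

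Casp8, the initiator caspase at death receptors, measured 28.2, 30.5 and 38.6 CPM in busulfan plus AOS, 40.8, 37.3 and 29.5 CPM in busulfan, 38.7, 40.0 and 32.3 CPM in AOS and 35.7, 40.2 and 35.1 CPM in control. All groups overlapped, and the average busulfan difference was -0.12 ± 0.10 on the log2 scale (95% interval -0.35 to 0.11, edgeR adjusted p = 0.65). Casp9, the initiator caspase of the apoptosome, measured 12.04, 22.7 and 24.6 CPM in busulfan plus AOS, 32.6, 25.1 and 19.0 CPM in busulfan, 32.8, 28.9 and 22.9 CPM in AOS and 25.4, 22.5 and 22.8 CPM in control. Its lowest value was in busulfan plus AOS replicate 1, the library of highest Egr1 and highest Mcl1. Busulfan plus AOS differed from AOS by -0.51 ± 0.26 (95% interval -1.09 to 0.07, edgeR adjusted p = 0.606), and by -0.26 without that library. Casp9 overlaps on the opposite strand with Cela2a over 1025 bases, and Cela2a had 39 reads or fewer in every library. The interaction of busulfan and AOS for Casp9 was -0.63 ± 0.37 (edgeR adjusted p = 0.8).

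The 2 caspases varied together by Pearson's measure. Over the 12 libraries the Pearson correlation of their log2 CPM was 0.80 (permutation p = 0.00029, 0.00812 adjusted over 28 pairs) and Spearman's rho was 0.69 (permutation p = 0.0173, adjusted 0.485). The permutations ignored the groups, so their p-values do not allow for structure that the libraries share. How often pairs of other genes reach such a correlation was not computed. Pearson's r was 0.60 without the 2 libraries farthest from the median of Casp8, busulfan plus AOS replicate 1 and busulfan replicate 3, and 0.78 for deviations from the group means. The 28 pairs are those of the 8 genes other than Bid, whose libraries fall into separate clusters. Casp9 and Mcl1 had a negative correlation that did not pass an adjusted p of 0.05 by either measure. Here r was -0.79 (permutation p = 0.00396, adjusted 0.0554) and rho was -0.41 (permutation p = 0.184, adjusted 0.592). The value of r was -0.12 without busulfan plus AOS replicate 1 and busulfan replicate 3, so the relation over all libraries rested on those 2. For deviations from the group means r was -0.93, with all 12 libraries, those 2 among them, included. None of the other 26 pairs had an adjusted p under 0.05 by either measure.

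Whether AOS changed these genes was asked with and without busulfan. With edgeR, 0 of the 9 passed an adjusted p of 0.05 for AOS against control or for busulfan plus AOS against busulfan, as did 0% of all tested genes in both. At an unadjusted p under 0.05 the count was again 0 of 9, against 3.59% and 8.69% of all genes, and groups did not overlap for 0 of 9, against 13% and 8.25%. For the interaction of busulfan and AOS, 0 of 9 passed the adjusted and 0 the unadjusted threshold, against 0% and 5.89% of all genes. The intervals bound what could have been missed. For busulfan plus AOS against busulfan they were -0.22 to 0.32 for Bcl2, -0.22 to 0.29 for Bcl2l1 and -0.34 to 0.06 for Bad on the log2 scale. Those of Mcl1 and Bak1 were -0.41 to 0.39 and -0.38 to 0.40, and that of Casp8 was -0.47 to 0.18. Wider ones were -0.54 to 0.67 for Bcl2l11 and -0.95 to 0.21 for Casp9, while that of Bid ran from -2.09 to 3.95.

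The gene most like each of the others was sought among 11026 tested genes with a mean of at least 5 CPM, by Pearson correlation of log2 CPM over 12 libraries. As the highest of so many values these are descriptions, and the points share their library and its depth. Mcl1 was closest to Ctgf, a matrix-associated growth factor, at 0.94, Casp8 to Slc41a2, a magnesium transporter, at 0.94, and Bcl2l1 to Kmt5a, a histone methyltransferase, at 0.93. Bcl2l11 was closest to Rab12, a small GTPase of membrane traffic, at 0.93, Casp9 to Arhgef10l at 0.92, Bad to Ctsz, a lysosomal protease, at 0.90, Bcl2 to C330007P06Rik at 0.88 and Bak1 to Fam216a at 0.87.

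The rest of the pathway was read from 7 lists of 66 genes, of which 57 were tested. Of these, 0 passed an adjusted p of 0.05 in any of the 6 comparisons with edgeR. At an unadjusted p under 0.05, 7 were higher and 3 lower for busulfan averaged over AOS, which is 17.5% of the 57 against 12.1% of all tested genes. The median log2 fold change of the 57 was 0.04, beside -0.00 over all genes. The genes named next are among the 2 of lowest p in each list. Groups that do not overlap are therefore in part what they were picked for.

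Among the other caspases, 7 of 7 tested had an average busulfan estimate above 0, from 0.05 to 1.298 with a median of 0.15. The median over all tested genes was -0.00. With edgeR, 0 of the 7 passed the adjusted threshold, and 2 had an unadjusted p under 0.05, against 12.1% of all tested genes. Casp8 and Casp9 had average estimates below 0, at -0.12 and -0.19, and all these estimates share the same libraries. Casp12, a caspase of the endoplasmic reticulum, had the largest estimate, 1.298 ± 0.56 (edgeR adjusted p = 0.398), and stood at 11.4 CPM in busulfan replicate 3 and at 0.691 to 1.83 CPM in the other 11 libraries.

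Apaf1, the scaffold of the apoptosome, measured 8.51, 13.4 and 14.8 CPM in busulfan plus AOS, 11.9, 11.7 and 12.8 CPM in busulfan, 10.1, 7.67 and 9.06 CPM in AOS and 10.7, 7.37 and 10.4 CPM in control, an average difference of 0.41 ± 0.15 (edgeR adjusted p = 0.35). Every library that received busulfan, other than busulfan plus AOS replicate 1, lay above all 6 libraries without it. Endog, a mitochondrial nuclease, had an average difference of 0.21 ± 0.09 (edgeR adjusted p = 0.399). Of 9 tested genes of this list 4 had estimates above 0 and 5 below, with a median of -0.06.

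The list of other BH3-only genes and effectors also held Bclaf1, Bcap31, Bcl2l12, Bcl2l13 and Bcl2l14, whose role as either was not checked. Of its 11 tested genes, Bcl2l13 with its uncertain level among them, 4 had estimates above 0 and the median was -0.02. Bcl2l15, a family member with a BH3-like stretch, measured 3.63, 2.83 and 2.76 CPM in busulfan plus AOS, 7.11, 5.30 and 3.16 CPM in busulfan, 9.96, 8.35 and 7.88 CPM in AOS and 5.38, 8.98 and 3.20 CPM in control, an average difference of -0.84 ± 0.26 (edgeR adjusted p = 0.311). The libraries given AOS did not overlap, as for 17.2% of all tested genes, whereas busulfan and control did. Bik, a BH3-only protein of the endoplasmic reticulum, measured 8.92, 4.67 and 9.15 CPM in busulfan plus AOS, 4.90, 10.3 and 7.56 CPM in busulfan, 9.92, 9.79 and 11.6 CPM in AOS and 12.9, 10.8 and 13.2 CPM in control, an average of -0.58 ± 0.20 (edgeR adjusted p = 0.339). Its groups did not overlap for busulfan against control, as for 11.3% of all tested genes. Nor did they for busulfan plus AOS against AOS, as for 17.2%. The share of genes separated in both pairs was not computed.

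At the death receptors, Tnfrsf1a, the main receptor of tumour necrosis factor, measured 39.6, 38.8 and 35.6 CPM in busulfan plus AOS, 34.8, 36.1 and 49.7 CPM in busulfan, 31.6, 33.5 and 34.2 CPM in AOS and 31.3, 28.2 and 31.1 CPM in control. All 6 libraries that received busulfan lay above the 6 that did not, and 0.984% of all tested genes separated as fully in either direction. The average difference was 0.31 ± 0.09 (unadjusted p = 0.00561, edgeR adjusted p = 0.286). Cflar, which blocks Casp8, had an average difference of 0.11 ± 0.07. Of this list 4 of 9 tested genes had estimates above 0, with a median of -0.09.

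Sptan1, a spectrin of the membrane skeleton that caspases cut, had the lowest p of the 57, at 0.00149, with an edgeR adjusted p of 0.198. It measured 343, 342 and 344 CPM in busulfan plus AOS, 343, 351 and 354 CPM in busulfan, 295, 293 and 329.7 CPM in AOS and 287, 311 and 304 CPM in control. The libraries with and without busulfan did not overlap, as for 0.984% of all tested genes, and the average difference was 0.19 ± 0.05. Gsn, an actin-severing protein also cut by caspases, had an average difference of 0.72 ± 0.34 (edgeR adjusted p = 0.425) and stood at 174 CPM in busulfan replicate 3 and at 28.7 to 61.0 CPM elsewhere. The median of these 10 substrate genes was 0.05.

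Among 9 tested inhibitors of apoptosis the median was 0.04; Birc5, a mitotic protein also known as survivin, had an average difference of 0.88 ± 0.38 (edgeR adjusted p = 0.401) at a level of 0.69 to 4.05 CPM, and Bag1, a cochaperone that binds Bcl-2, had -0.09 ± 0.05. Of the other survival genes of the Bcl2 family only Bcl2l2 and Bcl2a1a were tested. Bcl2l2, which encodes Bcl-w, had an average difference of -0.04 ± 0.06 (95% interval -0.17 to 0.09), and Bcl2a1a had -0.13 ± 0.37, where reads of its near-identical copies Bcl2a1b and Bcl2a1d may have been split in the counting.

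The separate list of p53-induced death genes was read from the same fit for comparison. Of 12 listed, 3 were higher at an edgeR adjusted p under 0.05 for busulfan averaged over AOS, against 0.194% of all tested genes in either direction. The median log2 fold change was 0.55 over the list, beside -0.00 over all tested genes, with 11 estimates above 0 and 1 below. Their choice was made with earlier results of these libraries known, so the contrast with the other lists is only a description. Eda2r, a death receptor for ectodysplasin A2, rose by 3.59 ± 0.24 on the log2 scale (edgeR adjusted p = 0.000139), with 5.80 to 10.4 CPM in the 6 libraries given busulfan and 0.363 to 1.06 CPM in the other 6. Tnfrsf10b, the receptor of the death ligand Trail, rose by 1.48 ± 0.21 (edgeR adjusted p = 0.0194), and Aen, a nuclease, by 0.71 ± 0.09 (edgeR adjusted p = 0.00689). Bax, named after its values were seen because it is the partner of Bak1, measured 28.6 to 35.2 CPM in libraries given busulfan and 21.1 to 27.3 CPM in the others, an average difference of 0.42 ± 0.08 (edgeR adjusted p = 0.0897), against 0.23 ± 0.13 for Bak1. The difference between Bax and Bak1 was not tested.

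**Figure D5:**
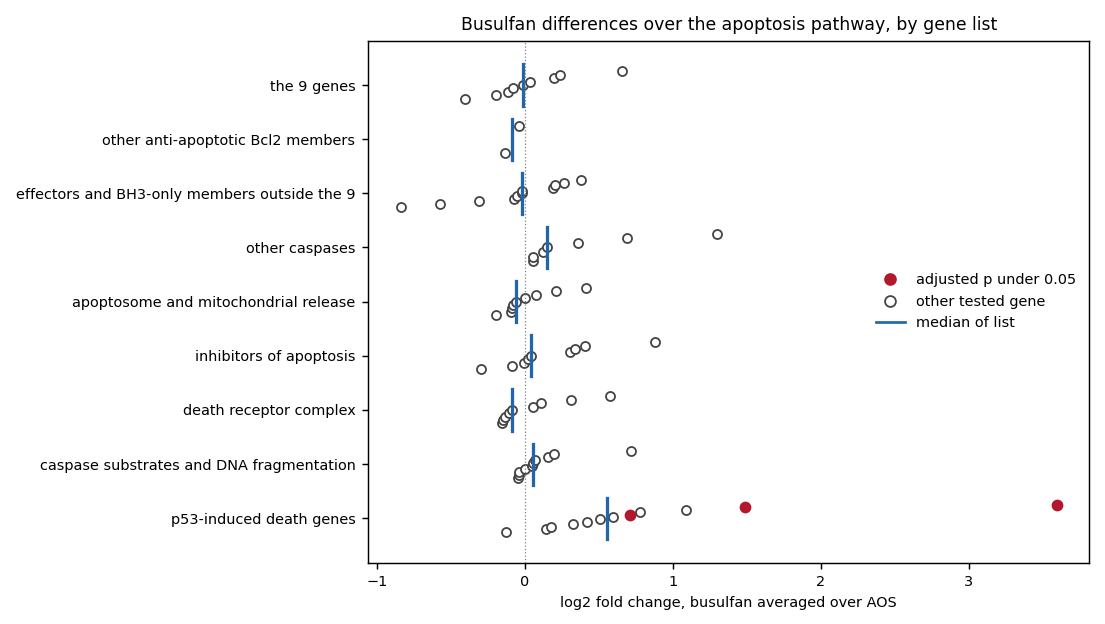
Log2 fold change for busulfan averaged over AOS of each tested gene (points), by list, with the median of the list (blue line); filled points have an adjusted p under 0.05. The 9 genes centre on -0.02 and the 7 lists of other machinery on -0.09 to 0.15, without a filled point, while the p53-induced list centres on 0.55 with 3 filled points. All lists were written with earlier results of these data known.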

How the data were processed

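Total RNA of mouse kidney was measured in 12 libraries, grouped by their titles. The authors deposited expected counts (estimated counts, 76.8% to 78.8% whole within 0.005) for 19261 genes, and beside them values taken as deposited FPKM from their scale. The build is mm10 per the submitters' processing notes; the sources used here name no aligner, counter or strandedness. The group means in the table were not used, and 0 columns of unmapped samples were present.

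After rounding, counts went into edgeR 4.0.16 (R 4.3.3): trimmed mean of M values scaling, edgeR's expression filter, 1 mean per group and quasi-likelihood tests of 6 contrasts with 8 residual degrees of freedom. Two-sided p-values were adjusted after Benjamini and Hochberg across the 14428 tested genes, and 0.05 was the threshold. SE is the absolute log2 fold change over the square root of F, and intervals are 95%. Levels are normalized CPM, and marker sums are scaled by the library total alone. The members and lists, and the naming rule, were chosen with earlier results of these data known. The rule names the 9 genes, the called genes and the 2 of lowest p for busulfan averaged over AOS in each list, and the most correlated gene of each member. A result that this rule would name is not reported here. Correlations between members used 100000 permutations. Fits were tested on simulated data.

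Alternatives were DESeq2 1.42.0, limma 3.58.1 with voom and library weights, the same tool on log2(FPKM + 1) and log2(FPKM + 0.1), scaling by relative log expression or by the upper quartile, a filter of 5 CPM in 3 libraries or none, a term for the replicate number (replicate block), fits limited to the groups compared, omission of each library, and omission of busulfan replicate 3 and busulfan plus AOS replicate 3 together (the adrenal and hepatocyte libraries). No library pair of a group was a duplicate: even the closest, replicates 1 and 2 of AOS, showed 5.36 times the variance of sampling.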

Additional observations from a re-analysis of the deposited data

How the results depend on the processing

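The count of the 9 genes called stayed at 0 in all 6 comparisons under every alternative run. Of 999 log2 fold changes of these genes under alternatives, over 54 gene and comparison pairs, 912 kept their direction and 87, in 23 pairs, turned it, and 0 were called in either setting. The cause of these turns was not tested. For busulfan against control, Bcl2 had -0.024, but 0.044 on log2(FPKM + 1), 0.061 on log2(FPKM + 0.1), 0.00030 with the 5 CPM filter and -0.089 to 0.065 with a library left out. Bcl2l1 had -0.068, but 0.0024 with voom. Bid had -0.26, but -3.42 to 2.23 with a library left out. Casp8 had -0.043, but 0.025 with voom, 0.0092 on log2(FPKM + 1), 0.0095 on log2(FPKM + 0.1), 0.076 without both libraries of other tissues and -0.15 to 0.076 with a library left out. Casp9 had 0.12, but -0.094 to 0.29 with a library left out. For busulfan plus AOS against AOS, Bcl2l1 had 0.035, but -0.016 with voom and -0.093 to 0.099 with a library left out. Mcl1 had 0.16, but -0.10 to 0.30 with a library left out. Bak1 had 0.055, but -0.052 with voom and -0.087 to 0.20 with a library left out. Bad had -0.00036, but 0.0016 with DESeq2, 0.018 with voom, 0.0017 with relative log expression scaling, 0.0045 with upper quartile scaling, 0.015 with the 5 CPM filter, 0.0049 with only the compared groups and -0.031 to 0.030 with a library left out. For busulfan averaged over AOS, Bcl2l1 had -0.017, but 0.00080 on log2(FPKM + 1), 0.00068 on log2(FPKM + 0.1), 0.0018 with the 5 CPM filter, 0.042 without both libraries of other tissues and -0.078 to 0.018 with a library left out. Bid had -0.41, but -1.99 to 0.84 with a library left out. For AOS against control, Bad had -0.071, but -0.11 to 0.0017 with a library left out. Casp8 had -0.00080, but 0.0014 with DESeq2, 0.056 with voom, 0.032 on log2(FPKM + 1), 0.034 on log2(FPKM + 0.1), 0.0014 with relative log expression scaling, 0.0090 with the 5 CPM filter, 0.00085 with only the compared groups and -0.059 to 0.092 with a library left out. For busulfan plus AOS against busulfan, Bcl2 had 0.051, but -0.012 on log2(FPKM + 1), -0.016 on log2(FPKM + 0.1) and -0.027 to 0.12 with a library left out. Bcl2l1 had 0.036, but -0.097 with voom and -0.094 to 0.12 with a library left out. Mcl1 had -0.0097, but 0.23 without both libraries of other tissues and -0.28 to 0.14 with a library left out. Bak1 had 0.011, but -0.042 with voom, -0.024 on log2(FPKM + 1), -0.027 on log2(FPKM + 0.1) and -0.13 to 0.15 with a library left out. Bcl2l11 had 0.068, but -0.15 to 0.52 with a library left out. For the interaction of busulfan and AOS, Bcl2 had -0.12, but 0.013 without both libraries of other tissues. Bcl2l1 had 0.10, but -0.018 with voom and -0.029 to 0.19 with a library left out. Mcl1 had -0.072, but 0.17 without both libraries of other tissues and -0.34 to 0.075 with a library left out. Bid had -0.30, but 0.35 with the replicate block, 2.67 without both libraries of other tissues and -2.79 to 2.86 with a library left out. Bcl2l11 had -0.10, but 0.37 with voom, 0.32 without both libraries of other tissues and -0.33 to 0.35 with a library left out.

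Over 18 same-numbered pairs the correlation of deviations from group means ran from -0.261 to 0.159, with a median of 0.0202. The median over 36 other pairs was -0.017, and 6 of 12 libraries correlated best with their own number. These values cannot show whether the replicate numbers pair the libraries, because no level expected without pairing was computed. With the replicate block 0 of the 9 genes were called. Over the whole table the block gave 5 calls for busulfan against control, 4 for busulfan plus AOS against AOS and 24 for busulfan averaged over AOS, beside 6, 10 and 28 without it, and 0 in the other comparisons with and without it.

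For busulfan against control DESeq2 called 124 genes, only the compared groups 0, and omission of a library 2 (control replicate 1), 3 (control replicate 2 or busulfan replicate 2) to 195 (busulfan replicate 1). For busulfan plus AOS against AOS the calls were 89 with DESeq2, 29 with voom, 1 with only the compared groups, 6 with both libraries of other tissues omitted, and 1 (any AOS library) to 25 (busulfan plus AOS replicate 1; 5 for its replicate 3) with a library left out. The average gave 223 with DESeq2, 60 with voom, and 18 (without AOS replicate 1) to 163 (without busulfan replicate 1). AOS against control gave 10 with DESeq2 and 1 with voom. Busulfan plus AOS against busulfan gave 24 with DESeq2, 1 with both libraries of other tissues omitted, and 0 to 26 with a library left out (26 without busulfan plus AOS replicate 1, 3 without busulfan replicate 1, 1 without busulfan replicate 3). The interaction gave 11 with DESeq2 and 0 to 1 (without busulfan plus AOS replicate 1) with a library left out. Depth limits the lowest genes: 0 reads in the shallowest library allow up to 0.216 CPM, counting error only.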

Other observations

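The deposited count, FPKM and library total together give the length that was used for a gene in each library, as the count divided by FPKM and total. For Bid this implied length was 1768 and 1769 bases in busulfan plus AOS replicates 1 and 3, 1763 bases in busulfan replicate 3, 1756, 1749 and 1765 bases in the AOS libraries and 1761 bases in control replicate 2, which are the 7 libraries of high Bid. It was 1802 bases in busulfan plus AOS replicate 2, 1936 and 1878 bases in busulfan replicates 1 and 2, and 1949 and 1821 bases in control replicates 1 and 3, the 5 libraries of low Bid. For Casp8, whose counts were whole in every library, it ran from 2344 to 2419 bases over all 12. The FPKM values are rounded to 2 decimals, which limits the low ones most.

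Of the other pathway genes, Htra2, a mitochondrial protease, had a log2 fold change of 0.24 for busulfan plus AOS against busulfan (unadjusted p = 0.0291), and Xiap, an inhibitor of caspases, had 0.19 for AOS against control (unadjusted p = 0.0431). Neither passed the adjusted threshold of edgeR's quasi-likelihood test, and both were chosen after their values were seen.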
